A study of Mus musculus with 2 samples.

Results

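The triad genes of excitation-contraction coupling were described here in gastrocnemius, a calf muscle of the hindlimb, from the long-read RNA sequencing of 2 libraries. The set held 10 genes, chosen by name among the annotated genes: Ryr1, Cacna1s, Cacna2d1, Cacnb1, Cacng1, Stac3, Jph1, Jph2, Trdn and Jsrp1. All 10 had reads in both libraries, out of 14451 annotated mouse genes with a read in either. Both libraries came from 1 group, female B6CASTF1/J mice aged 18 to 20 months, with no treatment named, and were numbered as biological replicates 1 and 2. B6CASTF1/J is the first-generation cross of C57BL/6J and CAST/EiJ, so each cell carries both parental genomes, while the reads were placed on mm10 (GRCm38), which is the C57BL/6J sequence. The labels give the same donor record for both libraries and do not say how many animals each came from, so every p-value here compares these 2 libraries only and the difference may be technical.

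In skeletal muscle the triad is the junction where a tubule of the surface membrane runs between a pair of sacs of the sarcoplasmic reticulum. The voltage sensor in the tubule, a calcium channel complex built around the pore subunit encoded by Cacna1s, touches the calcium release channel encoded by Ryr1 and opens it when the membrane depolarises. Cacna2d1, Cacnb1 and Cacng1 encode the accessory subunits of the sensor, and Stac3 encodes an adaptor that the sensor needs in order to reach the membrane and couple. Jph1 and Jph2 encode junctophilins, which tie the membranes together. Trdn (triadin) and Jsrp1 (JP-45) encode proteins of the sarcoplasmic reticulum membrane that bind calsequestrin, and JP-45 also binds the voltage sensor.

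The libraries held 1175829 reads in replicate 1 and 1017384 in replicate 2, of which 1117891 and 975696 lay on annotated mouse genes. Levels are given as CPM, the reads of a gene per 1000000 of those. A long read stands for 1 RNA molecule, so levels were not divided by length, and a count of 0 allows up to 2.68 CPM in replicate 1 and 3.07 CPM in replicate 2. The 6 skeletal fibre markers were all detected, with summed levels of 166084 and 158681 CPM. Markers of slow fibres were also all detected, with a sum of 568 CPM in replicate 1 and 4404 CPM in replicate 2, whereas 3 of the 6 cardiac markers (Nppa, Tnni3 and Ryr2) were at 0 in both libraries and the cardiac sum was 14.3 CPM in each. Libraries also differed by transcript length: the log2 ratio, replicate 1 to replicate 2, had a median of 0.32 over 1247 genes of up to 1500 nt and of -0.37 over 1123 genes of 5000 to 8000 nt. Neither the fibre markers nor length were tested as a part in any difference given below.

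Levels of the members ranged from 25.4 to 1000 CPM, and 3 genes stood apart at the top. Together the 10 members took 4226 reads in replicate 1 and 4162 in replicate 2, or 3780 and 4266 CPM. Ryr1, the release channel, was the highest with 1061 and 1025 reads, or 949 and 1051 CPM (1000 ± 71.7, SD, n = 2). Cacna1s, the voltage sensor, had 810 and 1202 reads, or 725 and 1232 CPM (978 ± 359). Trdn stood at 830 and 968 CPM (899 ± 97.1). These 3 genes stood above the other members in both libraries, and the order among them is not resolved because their ranges overlap. Jsrp1 was next with 408 and 296 reads, or 365 and 303 CPM (334 ± 43.6), below Trdn and above Cacnb1 in both libraries.

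Below Jsrp1 came Cacnb1, Jph1, Cacng1, Jph2 and Cacna2d1, each overlapping its neighbour in this order. Cacnb1, the beta subunit, had 267 and 190 reads, at 239 and 195 CPM (217 ± 31.2). Jph1 was nearly equal in both libraries, at 193 and 196 CPM (194 ± 1.79). Cacng1, the gamma subunit, was far from equal, at 264 and 109 CPM (186 ± 110). Jph2 stood at 115 and 84.0 CPM (99.3 ± 21.5), within reach of both Cacng1 and Cacna2d1, which encodes the alpha-2-delta subunit and had 69.8 and 110 CPM (89.7 ± 28.2). Stac3 was the lowest, with only 35 and 19 reads, at 31.3 and 19.5 CPM (25.4 ± 8.37), and its range lay under that of Cacna2d1.

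**Figure D1:**
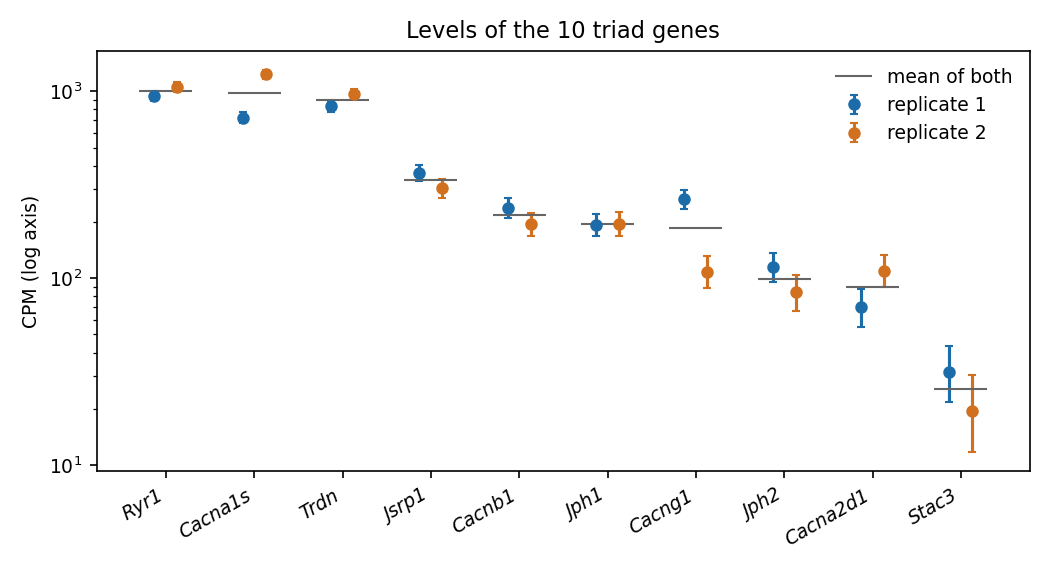
Level of each triad gene in CPM on a log axis, in order of the mean of both libraries; points are the libraries, bars are exact Poisson 95% intervals and grey lines are means. Ryr1, Cacna1s and Trdn sit near 1000 CPM, Stac3 sits near 25 CPM, and the points of Cacna1s and Cacng1 lie apart in opposite directions.

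Compared gene by gene, 5 of the 10 members differed between the libraries (2-sided exact binomial test, p-values adjusted by the Benjamini-Hochberg method across all 8394 genes with enough reads). Cacng1 was 2.24-fold higher in replicate 1 (95% interval 1.79 to 2.83, adjusted p = 6.32e-12, exact test). Cacna1s was 1.84-fold higher in replicate 2 (1.68 to 2.02, adjusted p = 1.21e-39, exact test). Cacna2d1 was 1.70-fold higher in replicate 2 (1.26 to 2.31, adjusted p = 0.00533, exact test), so that the pore subunit and the alpha-2-delta subunit of the sensor were both higher in the library where the gamma subunit was lower. Trdn and Ryr1 were also higher in replicate 2, by 1.26-fold (1.15 to 1.38) and 1.20-fold (1.10 to 1.31). Cacnb1, Stac3, Jph1, Jph2 and Jsrp1 did not pass the test, with folds between 1.10 and 1.48. In whole muscle, fewer fibres of a kind and less RNA per fibre cannot be told apart.

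Those counts, 1 member higher in replicate 1 and 4 in replicate 2, stand beside 4.61% of all genes called higher in replicate 1 and 7.06% called higher in replicate 2. The shares are not matched for read number, and this test calls smaller folds where reads are many. Ryr1, Cacna1s and Trdn ranked from 60 to 87 among all genes by reads, while the background takes every gene with at least 10. The members had a median log2 ratio, replicate 1 to replicate 2, of 0.01, and all genes had one of 0.00. The exact binomial test knows counting error only. With the scatter between the libraries added, as a common dispersion in edgeR's exact test, none of the 10 was called (the smallest unadjusted p was 0.033, for Cacng1), against 0.286% of all genes. Scaling by total reads ended the call of Ryr1 (adjusted p = 0.12, exact test). Models shorter than 50 nt held 43 of the Jsrp1 reads in replicate 2, and without them Jsrp1 was 1.30-fold higher in replicate 1 (adjusted p = 0.0123, exact test). Such models held 12 Cacng1 reads in replicate 2 and 17 Ryr1 reads in replicate 1, and their removal left 6 members called.

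For Ryr1 the exons of interest are its shortest. Exon 70 (15 nt) and exon 83 (18 nt) of the 106-exon transcript Ryr1-202 are the alternatively spliced segments of this channel, whose use is known to change as muscle matures, and both are coding and in whole codons. They are shown in capitals with 18 spliced bases on each side in lower case, and beside them exon 16 of Trdn, which has the same length as exon 83. All sequences of exons were cut from the GENCODE M21 transcripts.
Ryr1 exon 70, chr7:29056234-29056248, minus strand: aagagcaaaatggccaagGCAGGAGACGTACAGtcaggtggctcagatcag
Ryr1 exon 83, chr7:29044919-29044936, minus strand: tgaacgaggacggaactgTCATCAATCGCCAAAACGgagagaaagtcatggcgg
Trdn exon 16, chr10:33333232-33333249, plus strand: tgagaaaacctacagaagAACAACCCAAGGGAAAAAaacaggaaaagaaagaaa

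No read that spanned either Ryr1 exon held it with both of its boundaries. Exon 70 was in 0 of 42 spanning reads in replicate 1 and 0 of 154 in replicate 2, which allows up to 1.53% over both. Exon 83 was in 0 of 68 and 0 of 268, which allows up to 0.893%. Trdn exon 16, equally short, was in 265 of 267 spanning reads in replicate 1 (99.3%) and in 423 of 424 in replicate 2.

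These zeros have to be read against how exons of that size were recovered at all. Among coding exons that every annotated coding transcript across them holds, 9 of 10 with at most 15 nt were never seen in either library. In the 16 to 20 nt class 5 of 14 were never seen, exon 83 among them, while 5 of 14 were in at least 95% of reads. From 21 to 30 nt the median inclusion was 99.3% over 128 exons. The 0 of exon 70 is therefore no measure of its skipping, and for exon 83 recovery and skipping cannot be told apart.

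The junctions around both exons differed. Across exon 83, 64 of 68 reads in replicate 1 (94.1%, Wilson 95% interval 85.8 to 97.7) and 265 of 268 in replicate 2 (98.9%, 96.8 to 99.6) joined exon 82 to exon 84 at their annotated ends. In all, 4 reads in each library used the splice site at the 3′ end of exon 83 itself, most of them in models whose exon runs on past exon 83 toward or into exon 82. Just 2 reads of replicate 1 had exon 83 with both annotated boundaries, as the first exon of the model, where it spans nothing. Across exon 70 the annotated ends of exons 69 and 71 were joined in only 19 of 42 reads (45.2%, 31.2 to 60.1) and 104 of 154 (67.5%, 59.8 to 74.4). In 21 reads (50%) and 48 reads (31.2%) exon 69 instead ran 17 bases past its annotated end before the junction. Whether these are the 15 bases of exon 70, placed against exon 69 by the aligner, was not tested, so neither this share nor the inclusion of exon 69 is a measure of splice site choice. The inclusion of exon 69 with exact boundaries was accordingly 19 of 42 and 103 of 152, the lowest of the measured Ryr1-202 exons after exons 70 and 83. The difference between libraries did not pass (unadjusted p = 0.011, adjusted p = 1, Fisher's exact test). A 97-nt form of exon 69 in Ryr1-201 was in 1 of 42 and 1 of 152 reads. The 2-nt and 174-nt exons of Ryr1-201 were in 0 of 42 and 0 of 154, and the 27-nt and 30-nt exons of Ryr1-208 in 0 of 122 and 0 of 337. For the 2-nt exon this too is no measure of skipping, given its size.

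**Figure D2:**
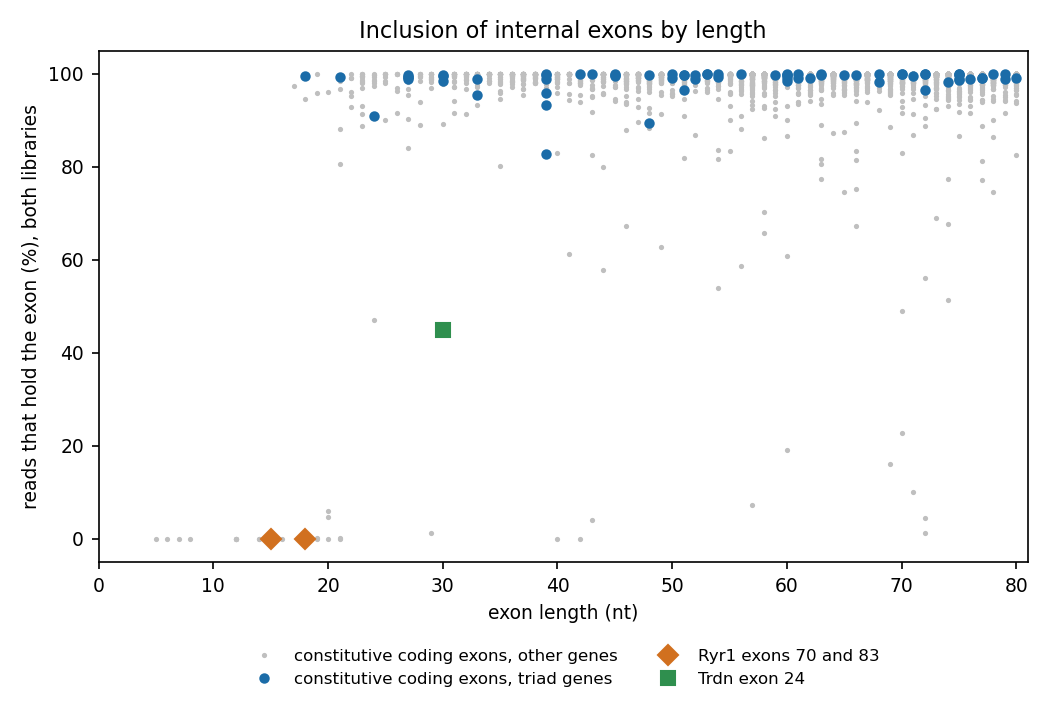
Share of spanning reads that hold an internal exon, over both libraries, against exon length up to 80 nt; grey points are constitutive coding exons of other genes, blue points those of triad genes. Ryr1 exons 70 and 83 lie at 0, Trdn exon 24 (30 nt) lies at 44.9%, and Trdn exon 16, the blue point at 18 nt, lies near 100%.

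Almost no Ryr1 read covered the whole message. Ryr1-202 measures 15358 nt with 105 introns. Reads matching only part of the annotated introns (incomplete splice match, ISM) made up 1001 of 1061 reads in replicate 1 (94.3%) and 980 of 1025 in replicate 2 (95.6%), and none matched an annotated transcript from end to end. The median read held 14.3% of the introns in both libraries, and the most complete read held 101 of them. No spanning read held exon 70 or exon 83 with both boundaries, so none could hold every intron of Ryr1-202. A chain of 104 exons was in 2 reads of replicate 1, against 106 exons in Ryr1-202. Just 17 reads (1.60%) and 55 reads (5.37%) held at least 50% of the introns. The first coding exon was reached by 3 reads in replicate 1 and by 0 in replicate 2. Intron chains of Ryr1 therefore describe mostly its 3′ part.

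Reads of Ryr1 did not stop evenly along it. Exon 91 was the first exon of 400 of 1043 spliced reads in replicate 1 (38.4%, 35.4 to 41.3) and of 342 of 1012 in replicate 2 (33.8%, 30.9 to 36.8), which leaves 16 exons and 2586 nt up to the end of the message. Exon 92 followed with 178 and 74 reads, and exon 95 with 101 and 57. Exon 91 is long, at 792 nt, so it took 50.5 and 43.2 reads per 100 nt of exon. Exon 92 has only 71 nt and took 251 and 104 per 100 nt, more than any other exon in either library. Exon 74 began 57 reads in replicate 2 against 8 in replicate 1, so replicate 2 held more of the longer partial reads. At the other end nearly all reads met: 1026 of 1043 (98.4%) and 999 of 1012 (98.7%) ended in exon 106.

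**Figure D3:**
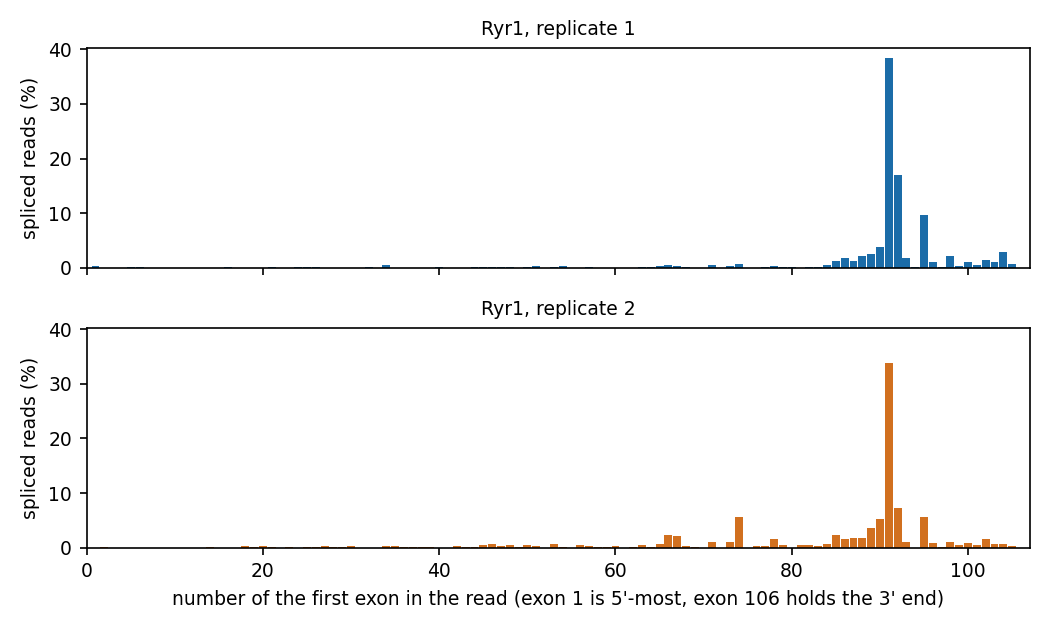
Share of spliced Ryr1 reads by the number of their first exon, with replicate 1 above and replicate 2 below. Exon 91 holds 38.4% and 33.8% of reads, exons 92 and 95 stand out beside it, and exon 74 is visible in replicate 2.

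Cacna1s was read far more completely and as a single main form. The 44-exon chain of Cacna1s-204, which encodes 1850 residues, took 441 of 467 spliced reads of Known, NIC or NNC models in replicate 1 (94.4%) and 755 of 808 in replicate 2 (93.4%). NIC models join annotated splice sites in an unannotated combination, and NNC models hold at least 1 unannotated splice site. Exon 29 (57 nt) is the exon whose skipping marks the embryonic form of this sensor, and it is missing from the annotated Cacna1s-202. It is shown in capitals with 18 spliced bases on each side.
Cacna1s exon 29, chr1:136104570-136104626, plus strand: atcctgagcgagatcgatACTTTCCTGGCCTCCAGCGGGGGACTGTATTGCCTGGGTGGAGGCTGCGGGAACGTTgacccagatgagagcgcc

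Exon 29 of Cacna1s was included in 589 of 592 spanning reads in replicate 1 (99.5%, 98.5 to 99.8) and in 1049 of 1056 in replicate 2 (99.3%, 98.6 to 99.7). The 3 annotated Cacna1s exons under 95% all belong to minor transcripts near the 3′ end. A 144-nt exon of Cacna1s-201 was in 10 of 677 and 6 of 1124 reads. A 107-nt exon of Cacna1s-201 and a 9-nt exon of Cacna1s-206 were in none. For the 9-nt exon this is no measure of skipping, because exons that short were hardly recovered in any gene. The first coding exon was reached by 461 of 810 reads in replicate 1 (56.9%) and by 799 of 1202 in replicate 2 (66.5%). With ISM and Genomic models added to the denominator, the full chain was 54.4% of all Cacna1s reads in replicate 1 and 62.8% in replicate 2. That was the only difference called among the 9 members tested (adjusted p = 0.0235, Fisher's exact test). How many of all 3398 genes were called in this setting is not given here. Partial reads enter that denominator, so the share also depends on how complete the reads were.

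Cacna2d1 also had 1 main chain, that of Cacna2d1-201 with 39 exons and 1103 residues, in 29 of 35 such reads in replicate 1 (82.9%) and 62 of 70 in replicate 2 (88.6%). Its exon 19, which of the annotated transcripts only Cacna2d1-201 holds as an internal exon, and the long form of exon 20 are the parts of this subunit known to vary between tissues, and they follow each other in the message.
Cacna2d1 exon 19, chr5:16322539-16322595, plus strand: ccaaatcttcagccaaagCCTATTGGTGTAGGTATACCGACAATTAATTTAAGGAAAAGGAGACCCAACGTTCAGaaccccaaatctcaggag
Cacna2d1 exon 20, chr5:16326312-16326383, plus strand: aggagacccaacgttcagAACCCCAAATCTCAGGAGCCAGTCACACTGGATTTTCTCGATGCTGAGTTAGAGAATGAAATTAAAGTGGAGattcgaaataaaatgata

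Exon 19 was in 36 of 37 spanning reads in replicate 1 and 79 of 79 in replicate 2. The 72-nt form of exon 20 was in 36 of 36 and 76 of 79 reads, and the 57-nt form of Cacna2d1-209 and others took 0 of 36 and 3 of 79. The 21-nt exon of Cacna2d1-203, Cacna2d1-204 and Cacna2d1-206 was in 0 of 38 and 0 of 79, which allows up to 2.56%. A further 3 exons, of Cacna2d1-205 (81, 9 and 69 nt), were never seen. The 9-nt exon is of a size hardly recovered in any gene, so its absence is no measure of skipping. The first coding exon was reached by 39 of 78 reads (50%) and 72 of 107 (67.3%).

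Cacnb1 has 2 annotated starts, and nearly all of its reads used the inner one. Reads whose first exon ended at the splice site of the short Cacnb1-204 exon numbered 231 of 242 in replicate 1 (95.5%, 92.0 to 97.4) and 152 of 168 in replicate 2 (90.5%, 85.1 to 94.1). The outer start, of Cacnb1-202 and 3 other transcripts, took 11 and 16 reads. The alternative first exons give the protein different N-termini. Their coding parts, and the 250 bases before each RefSeq start (GRCm38.p6), are shown because this choice is where Cacnb1 molecules differed. Capitals in the upstream sequences mark the E-box letters CANNTG, which muscle regulatory factors of the MyoD family can bind.
Cacnb1-204 coding start, chr11:98018273-98018302, minus strand: ATGGAGGTGCCCAGCCGGACCCTGGTAGTG
Cacnb1-202 coding start, chr11:98022342-98022425, minus strand: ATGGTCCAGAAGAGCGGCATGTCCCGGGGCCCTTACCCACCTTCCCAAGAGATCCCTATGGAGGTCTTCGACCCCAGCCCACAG
Upstream of the Cacnb1-204 start, chr11:98018373-98018622, minus strand: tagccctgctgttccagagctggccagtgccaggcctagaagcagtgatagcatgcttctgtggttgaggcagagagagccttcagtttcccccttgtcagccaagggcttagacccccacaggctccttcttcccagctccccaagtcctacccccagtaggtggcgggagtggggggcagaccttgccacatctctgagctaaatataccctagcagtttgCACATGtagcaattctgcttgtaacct
Upstream of the Cacnb1-202 start, chr11:98022628-98022877, minus strand: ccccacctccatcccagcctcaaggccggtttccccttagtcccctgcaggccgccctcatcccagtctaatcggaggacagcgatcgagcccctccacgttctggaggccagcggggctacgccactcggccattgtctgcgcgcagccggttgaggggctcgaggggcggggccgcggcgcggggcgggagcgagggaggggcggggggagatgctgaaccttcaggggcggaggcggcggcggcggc

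The upstream sequences differed in composition and in E-boxes. The one before the much used start has a GC content of 56% and a single E-box, and the one before the rarely used start has a GC content of 73.2% and none. The E-box letters read the same on both strands and occur in 66.2% of 32851 promoter windows of the same 250 bases, so its presence is common. RefSeq windows were found for 5 of the 10 members, 7 windows in all, and 4 of the 7 held an E-box. Both Jph2 windows overlap and hold the same E-box, so it is counted more than once. The letters TATAAA, searched on both strands, were in none of the 7 and in 12.4% of all windows.

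Downstream of its start Cacnb1 was uniform. The Cacnb1-204 chain took 220 of 245 reads of Known, NIC and NNC models (89.8%) and 146 of 172 (84.9%). A 20-nt exon of Cacnb1-201 and Cacnb1-205 that stands in place of the 155-nt exon was in 2 of 251 and 0 of 175 spanning reads, and a 373-nt exon of Cacnb1-206 was in none. The 155-nt exon, chr11:98011343-98011497, was in 97.6% and 100% of reads. The last exon at chr11:98005314 ended 255 of 255 and 177 of 179 spliced reads.

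Cacng1 had a single form: the 4-exon Cacng1-201 took 254 of 257 reads (98.8%) and 87 of 88 (98.9%), so the form was the same in both libraries while the level differed 2.24-fold. Stac3 had too few reads for a share with useful precision. Its most frequent chain, in 8 of 12 and 5 of 10 reads, joined annotated splice sites in an unannotated way, while Stac3-201 had 1 and 3 reads and Stac3-202 had 1 in each library. The 11 and 10 reads that reached the first coding exon were 31.4% (11 of 35) and 52.6% (10 of 19) of all Stac3 reads.

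The junctophilin Jph1 showed splicing after its stop codon. An unannotated intron that begins 15 bases past the stop codon was removed in most of its reads with the last annotated intron spliced. Of 160 reads in replicate 1 with the last annotated intron spliced, 97 (60.6%, 52.9 to 67.9) had such a further intron, and of 167 in replicate 2, 100 (59.9%, 52.3 to 67.0) had it. All of them left from the same base, with intron bases chr1:16997463 downward on the minus strand, a splice donor that is annotated only in the transcript Jph1-202. They arrived at different acceptors, none of them annotated. The 423-nt intron chr1:16997041-16997463 was in 65 of 160 (40.6%) and 66 of 167 (39.5%), the 574-nt intron chr1:16996890-16997463 in 24 (15%) and 26 (15.6%), and a 420-nt intron ending 3 bases from the first in 6 and 6. In the annotated Jph1-201 sequence each of these introns starts with gt and ends with ag, the usual letters of a spliced intron. The counting intervals of both libraries overlapped for each share, and the coding sequence is the same with or without the intron.

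Counted as whole chains, the form with the 423-nt intron was the leading chain of Jph1, in 52 of 118 reads (44.1%) and 50 of 134 (37.3%), ahead of the annotated Jph1-201 in 40 (33.9%) and 48 (35.8%). The form with the 574-nt intron held 19 (16.1%) and 22 (16.4%). For the paralog Jph2 the annotated 6-exon Jph2-201 held 44 of 48 (91.7%) and 29 of 33 (87.9%). Single-exon Genomic models, unspliced reads inside the gene, made up 55 of 128 Jph2 reads in replicate 1 (43.0%) and 32 of 82 in replicate 2 (39.0%), and the first coding exon was reached by 47 (36.7%) and 32 (39.0%).

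Trdn reads were spread over many chains. It had 154 chains among 217 and 321 reads of Known, NIC and NNC models, and its leading chain held only 13.4% in each library, against a median of 89.3% over the 3398 genes tested. That chain, in 29 and 43 reads, has 37 exons and lacks exon 24; the next, in 28 (12.9%) and 42 reads (13.1%), has 38 exons and holds it. Neither is an annotated chain.

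The ends of Trdn reads varied. Of 880 spliced reads in replicate 1, 527 (59.9%, 56.6 to 63.1) had exon 10 as their last exon, 177 (20.1%, 17.6 to 22.9) went on to exon 38, the last of Trdn-201, and 84 (9.55%, 7.78 to 11.7) ended in an exon that starts as exon 21 and runs on as far as chr10:33368353, an end that no annotated transcript has. Of 914 in replicate 2 the same ends held 437 (47.8%, 44.6 to 51.1), 275 (30.1%, 27.2 to 33.1) and 146 (15.97%, 13.7 to 18.5). Replicate 2 thus held a smaller share ending in exon 10 and larger shares of both longer forms, and the counting intervals do not overlap for any of the 3. Exon 10 is annotated as a last exon, in Trdn-207. Models ending in it reached no farther than chr10:33233926, where exon 10 also ends as an internal exon of Trdn-201. Model ends lie mostly on annotated ends, so this position does not show where the reads themselves ended. The next exon of Trdn-201, exon 11, is 63.5% A in its annotated 63-nt form, which no spanning read held. Whether the reads that end in exon 10 mark an end of the message or are partial reads was not tested. Starts varied as well: 146 reads (16.6%) and 246 reads (26.9%) had exon 6 as their first exon, and 688 and 611 began in exon 1. Exon 4 was in 96.4% and 94.3% of reads across it.

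**Figure D4:**
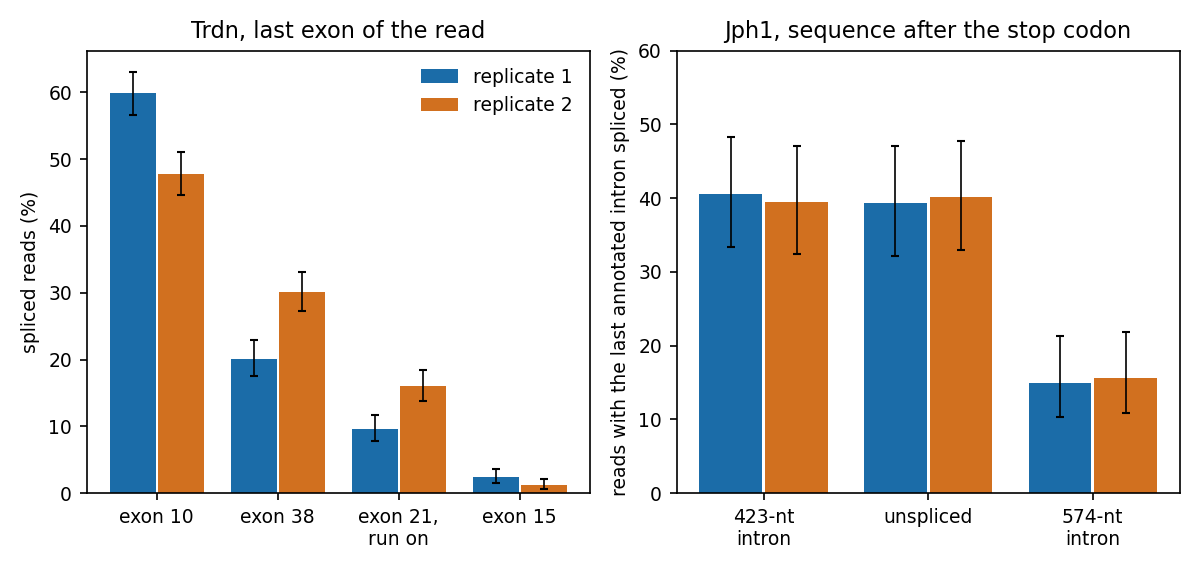
Left, share of spliced Trdn reads by their last exon; right, share of Jph1 reads with the last annotated intron spliced that have no further intron or 1 of the 2 main unannotated introns after the stop codon. Bars are libraries and error bars are Wilson 95% intervals; Trdn shares differ between the libraries for exons 10, 38 and 21, and for Jph1 the bars of both libraries overlap in their intervals.

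Exons of Trdn that varied, or that resemble each other, are shown in capitals with 18 spliced bases on each side.
Trdn exon 24, chr10:33433701-33433730, plus strand: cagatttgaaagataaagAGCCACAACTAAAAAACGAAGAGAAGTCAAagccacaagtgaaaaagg
Trdn exon 34, chr10:33464558-33464596, plus strand: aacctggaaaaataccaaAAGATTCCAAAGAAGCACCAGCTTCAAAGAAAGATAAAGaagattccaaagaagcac
Trdn exon 35, chr10:33466423-33466461, plus strand: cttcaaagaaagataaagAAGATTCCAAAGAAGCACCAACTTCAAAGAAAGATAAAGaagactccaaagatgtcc
Trdn exon 36, chr10:33468156-33468194, plus strand: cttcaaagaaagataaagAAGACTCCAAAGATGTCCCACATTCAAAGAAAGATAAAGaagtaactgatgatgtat

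Exon 11 of Trdn came in several lengths. Its 105-nt form, annotated in Trdn-205, was in 186 of 288 spanning reads in replicate 1 (64.6%, 58.9 to 69.9) and 275 of 427 in replicate 2 (64.4%, 59.8 to 68.8). The 63-nt form of Trdn-201 was in none. An unannotated 87-nt form took 93 (32.3%, 27.2 to 37.9) and 133 (31.1%, 26.9 to 35.7), and forms of 99, 93 and 81 nt took the other 9 and 19. All forms share their 3′ end.

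Exon 24 of Trdn was the exon closest to an even split among all members. It was in 73 of 170 spanning reads in replicate 1 (42.9%, 35.7 to 50.5) and in 123 of 267 in replicate 2 (46.1%, 40.2 to 52.1), and reads without it joined exon 23 to exon 25 by the unannotated intron chr10:33399146-33437717. Its neighbour exon 25, also 30 nt, was in 98.2% of reads in replicate 1. Exon 20 (48 nt) was in 88.6% and 90.0%, exon 33 (24 nt) in 91.9% and 90.4%, exon 35 in 84.0% and 82.1%, and exon 36 in 94.3% and 92.7%. These shares count exact boundaries only. Where any overlap counted as inclusion, exons 20 and 24 were the only Trdn exons still under 95%. The lower shares of exons 33, 35 and 36 are therefore no measure of their skipping. Some reads had the unannotated intron chr10:33464597-33466425, which ends inside exon 35. Exons 34 and 35 are identical at 38 of their 39 positions, and exon 36 matches each at 33. Where a read does lack a copy, which one it lacks is uncertain. All 36 internal exons of Trdn-201 are in whole codons, so any of them can be skipped without a change of reading frame.

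Jsrp1 mostly followed 1 annotated form and skipped 1 exon in a minority of reads. Jsrp1-203, with 7 exons and 332 residues, held 229 of 297 reads of Known, NIC and NNC models (77.1%) and 154 of 215 (71.6%). A chain without exon 2, joined from annotated splice sites, held 30 (10.1%) and 29 (13.5%). Other chains, each under 10%, held an unannotated exon between exons 1 and 2. Such a chain was in 6 (2.02%) and 12 reads (5.58%), and another in 10 (3.37%) and 3 (1.40%). Exon 2 has 123 nt. The sequence below holds the letters ATG a few bases after its start, so its length alone does not show what skipping does to the reading frame.
Jsrp1 exon 2, chr10:80812295-80812417, minus strand: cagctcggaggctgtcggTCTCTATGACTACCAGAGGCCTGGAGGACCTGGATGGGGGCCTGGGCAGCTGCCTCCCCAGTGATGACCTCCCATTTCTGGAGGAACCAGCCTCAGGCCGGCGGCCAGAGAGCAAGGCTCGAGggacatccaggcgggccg

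Exon 2 of Jsrp1 was in 266 of 301 spanning reads in replicate 1 (88.4%, 84.3 to 91.5) and in 184 of 215 in replicate 2 (85.6%, 80.3 to 89.7). The 255-nt exon of Jsrp1-204 was in 0 of 318 and 0 of 241. The last exon ended 339 of 341 and 252 of 253 spliced reads.

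Over the members, 217 annotated internal exons had at least 20 spanning reads in each library. Of these, 190 were in at least 95% of reads, 15 were never seen and 12 lay between. Trdn held 6 of the 12. The 15 include exons of a size poorly recovered here, such as Ryr1 exons 70 and 83, and those zeros are no measure of skipping. None of the 217 differed in inclusion between the libraries (4 had an unadjusted p under 0.05), against 0.0362% of 35863 exons over all genes (Fisher's exact test, adjusted across those exons by Benjamini-Hochberg). None of the 9 members tested differed in the share of its leading chain either, from 2.38% for Ryr1 (mean of both libraries, on 42 and 43 reads) to 98.8% for Cacng1 (0 had an unadjusted p under 0.05), against 0.471% of all genes. Levels of members differed by up to 2.24-fold in the exact binomial test, and none was called once the scatter between libraries was added. The absence of calls for exons and chains lies near the shares over all genes, so it sets no contrast with the levels. First and last exons were not tested, and for Trdn their counting intervals did not overlap between the libraries; a p that misses the threshold does not show that the shares are equal.

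Reach toward the 5′ end set how much of each message these shares describe. In 7 of 10 members at least 50% of reads, as the mean of both libraries, held the first coding exon; the exceptions were Ryr1, Jph2 and Stac3. The highest shares were 88.1% and 83.02% for Cacng1 (1249 nt) and 87.3% and 81.6% for Cacnb1 (1778 nt). Trdn reached it in 74.1% and 64.7%, Jsrp1 in 69.6% and 70.9%, and Jph1 in 59.3% and 68.1%. For Trdn this is not coverage of the long message, since the median read held 24.3% of the introns of Trdn-201 in both libraries. Only 25.4% and 39.6% of Trdn reads held at least 50% of those introns. Length and reach did not go together throughout, since Stac3 and Cacnb1 are of nearly the same length and Cacna1s, at 6104 nt, lay above Jph2 at 4211 nt.

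**Figure D5:**
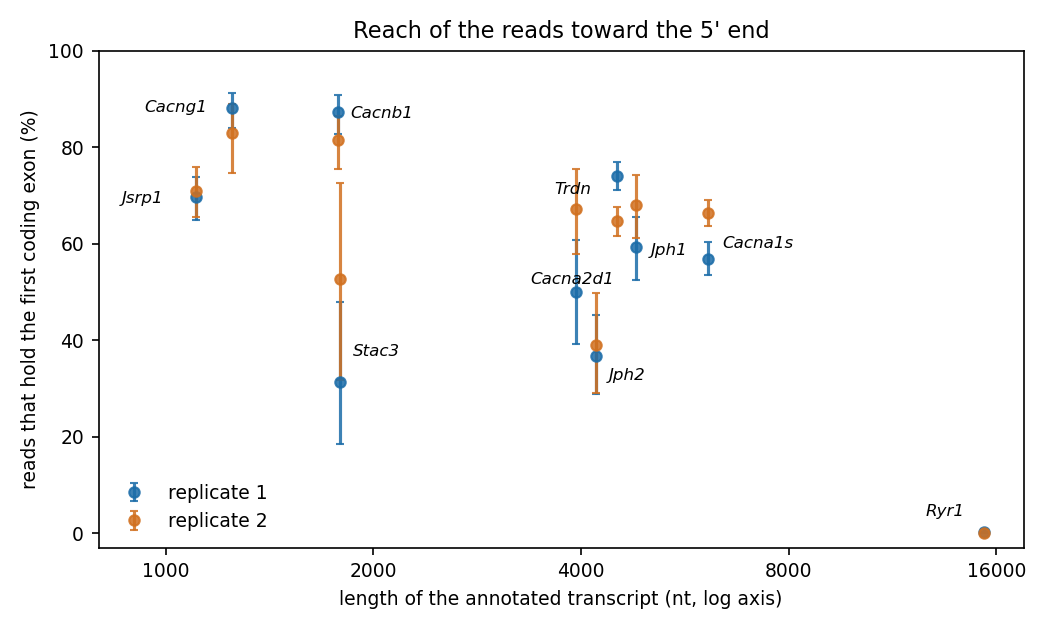
Share of all reads of a gene that hold its first coding exon, with Wilson 95% intervals, against the length of its annotated transcript on a log axis, for both libraries. Cacng1 and Cacnb1 lie above 80%, Jph2 under 40%, and Ryr1, the longest at 15358 nt, at 0.283% and 0%.

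In 4 of the families a single gene supplied nearly all reads. Ryr1 had 1061 and 1025 reads while Ryr2 and Ryr3 had none, and Cacna1s held 810 of 811 and 1202 of 1203 reads of the L-type pore genes. Cacnb2, Cacnb3 and Cacnb4 had none, and Stac3 held 35 of 36 and 19 of 19. In the alpha-2-delta family Cacna2d1 held 86.7% and 93.0%, with Cacna2d3 at 11.1% and 6.09%. Reads of the gamma subunits were divided: Cacng6 had 322 and 303 reads and so made up 52.2% (48.2 to 56.1) of Cacng reads in replicate 1 and 73.9% (69.4 to 77.9) in replicate 2. Cacng6 itself was not called (1.17-fold higher in replicate 2). So were those of the junctophilins, where Jph1 held 62.8% and 69.96% and Jph2 the remainder, with Jph3 and Jph4 at 0. Of 23 paralogs on the list, 8 had reads and 2 had enough to be tested, and neither was called.

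Among 33 other genes of coupling, calcium storage and triad upkeep, 31 had reads and 30 were tested: 8 were higher in replicate 1, 8 in replicate 2 and 14 were not called. The most abundant was the calcium pump Atp2a1 at 171569 ± 28104 CPM (SD, n = 2), followed by calsequestrin Casq1 at 3502 ± 201, sarcalumenin Srl at 2989 ± 1135, the counterion channel Tmem38a at 1710 ± 157 and parvalbumin Pvalb at 1501 ± 342. Higher in replicate 2 were the slow-fibre pump Atp2a2 (6.97-fold), Casq2 (2.98-fold), Dnm2 (2.12-fold), Srl (1.88-fold), Dysf (1.70-fold), Sypl2 (1.52-fold), Atp2a1 (1.37-fold) and Casq1 (1.17-fold). Among those higher in replicate 1 were the pump inhibitor Mrln (2.54-fold), Tmem38b (1.69-fold), Calm2 (1.58-fold), Calm3 (1.53-fold), Fkbp1a (1.40-fold), the tubule-shaping Bin1 (1.34-fold) and Pvalb (1.28-fold). With the scatter added only Atp2a2 remained called (edgeR's exact test, adjusted p = 0.000982), and the slow-fibre markers, which were higher in the same library, were not tested for a part in it.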

How the data were processed

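RNA of gastrocnemius (2 µg per library, per the labels) was read as long reads in 2 libraries of 1 group. The authors deposited, for each library, a table of raw read counts per transcript model and the exons of each model on mm10 with GENCODE M21, per the sample notes and file headers. Models carry TALON names and classes; which aligner and which filters were used is not given in the sources used here. Model ends lie mostly on annotated ends, so comparisons rest on introns. Models were matched between libraries by intron chain. Gene counts summed every model of a Known gene. CPM was computed here, with counts left undivided by length, since 1 long read is 1 molecule. Genes whose summed count was at least 10 were compared by a 2-sided exact binomial test on TMM effective library sizes (edgeR 4.0.16, R 4.3.3), chains and exons with at least 20 reads per library by Fisher's exact test (scipy 1.17.1), all with Benjamini-Hochberg adjustment at 0.05. An exon counted as included when both of its boundaries were exact. These tests, Wilson and Poisson 95% intervals, and the 3 reads that a count of 0 allows cover counting error only. The tests were also run on data simulated with counting error and no scatter between libraries, so that check does not cover such scatter. DESeq2 1.42.0 size factors and edgeR's exact test with a common dispersion of 0.0622 were among the alternatives. All members were named, with each chain holding at least 10% of classified reads (at most 4) and each exon under 95% inclusion. From the lists of other coupling genes and paralogs, those called and the 5 most abundant were named. Exons 16, 25 and 34 of Trdn, exon 29 of Cacna1s, exons 19 and 20 of Cacna2d1, Cacng6 and the other paralogs with values were chosen after their values were seen. Members and lists were chosen with earlier results of these data known. Promoter windows came from RefSeq (GRCm38.p6). A gene of the coupling list and a sequence are not reported here.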

Additional observations from a re-analysis of the deposited data

Results flagged for a closer look

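Reads of unannotated models lay on the strand opposite some members, data that no comparison above uses. There are no control samples, so each number was set against the 3 reads that a count of 0 allows. Opposite Cacna2d1 there were 15 such reads in replicate 1 and 9 in replicate 2. Opposite Trdn there were 15 in replicate 1 and 12 in replicate 2. Opposite Ryr1 there were 5 in replicate 2. The other members had at most 2 in either library.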

How the results depend on the processing

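The count of 5 members called between the libraries moved to 3 with Known models only and to 0 in edgeR's exact test with a common dispersion, and stayed between 4 and 6 under the remaining settings, of which leaving out models shorter than 50 nt was chosen after seeing the data. Known, NIC and NNC models alone ended the call of Ryr1 on 42 and 43 reads (1.27-fold against 1.20-fold, adjusted p = 0.587, exact test), turned the log2 ratio of Stac3 from 0.57 to -0.048, and lowered the summed level of the members from 4023 to 1756 CPM, with Ryr1 at 40.8 and Trdn at 269 CPM. Known models alone turned the ratio of Trdn from -0.34 to 0.76 (adjusted p = 0.506, exact test). Leaving out either library gave summed levels of 3780 to 4266 CPM. Unannotated models on the same strand as a member held 0 reads. With ISM and Genomic models in the denominator 1 member, Cacna1s, differed in its leading chain, and 9 of 10 shares moved. Partial reads enter that denominator, and the share of all genes called with it is not given here. Exons under 95% inclusion numbered 27 of 217, 11 where any overlap counted as inclusion and 36 of 186 with Known, NIC and NNC models only. With any overlap, too, 0 differed between libraries. No paired analysis was possible because both libraries belong to 1 group. Reads of Ryr1 that end within its last exons limit what can be said of its 5′ part, and the reads of Stac3 are too few for shares.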

Other observations

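Annotated genes on either strand overlapped 6 of the 10 members. Reads of the 19 overlapping genes numbered 46 in replicate 1 against 21 in replicate 2, and Gm28376, which lies antisense to Jph1, held 36 and 18 of them.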
